A study of Mus musculus with 2 samples.

Results

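The genes described here are 35 members of glycolysis and of the response to low oxygen, read in 2 single-cell RNA libraries of newborn mouse eye cups. They were chosen by gene symbol, as 17 glycolytic enzymes, 2 glucose transporters, 14 hypoxia targets and the 2 alpha subunits of the hypoxia inducible factors, out of 31017 gene symbols in the deposited matrices. UMIs of repeated symbols were added, which concerned Aldoa with 2 annotated rows. All 35 symbols were present.

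Glycolysis splits glucose into pyruvate in a fixed order of enzymes, and lactate dehydrogenase turns pyruvate into lactate. Most of these enzymes and many other genes are activated by HIF1A or EPAS1 (HIF2A) when oxygen is low, because the prolyl hydroxylases that mark these subunits for degradation need oxygen. In the eye, photoreceptors and retinal progenitors are known for a high rate of aerobic glycolysis, and the retinal pigment epithelium (RPE) passes glucose from the choroid to the retina.

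The study asked what becomes of the eye when MYRF, a membrane-bound transcription factor, is lost from the early eye field. Eye cups were collected at postnatal day 0 and 3 of them were pooled for each library. The control library came from Myrf fl/fl mice, which carry the loxP-flanked Myrf alleles without Cre. The mutant library came from Rx>cre Myrf fl/fl mice, in which Cre driven by Rx recombines the same alleles in cells that descend from the eye field, so mesenchyme, vessels and blood are not its targets. Every genotype had 1 library. No test, p-value or replicate spread is therefore available, the effect of the genotype and the difference between the 2 pools cannot be told apart, and the 95% intervals printed below are exact Poisson intervals that cover counting error only.

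The control library held 14305 barcodes with 79017429 UMIs (median 4201 a cell) and the mutant library 12222 barcodes with 76272867 UMIs (median 4952). After filtering and doublet removal 12494 and 10832 cells remained, of which 9868 and 9384 lay in named classes, and 59 barcodes occurred in both libraries. Cells were assigned to classes by marker genes, and 7 classes with at least 100 cells in both libraries were compared. The RPE-like class had 484 control and 198 mutant cells, with a median of 2507 and 10655 UMIs. The retinal progenitor-like class had 3893 and 4546 cells, with a median of 4539 and 4731 UMIs. The pools also differed in the sex of their animals. In the progenitor-like class 80 control cells had Xist and lacked Y-linked UMIs against 2278 with the reverse, and in the mutant library these numbers were 3338 and 635.

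Myrf itself was read first as a check of the labels. In RPE-like cells it had 231 CPM in the control library (UMIs of a gene per 1000000 UMIs of the class) and 27.0 CPM in the mutant one, an 8.57-fold lower level. The UMIs come from the 3′ end of the transcript and need not lie in the deleted exons. The summed level of 10 RPE markers in this class was 24601 CPM for control cells and 14882 CPM for mutant cells, with 6 of 10 lower and Rpe65 at 0 in the mutant cells. Markers of other cells also differed between the 2 libraries. The 10 mesenchyme markers summed to 2420 and 329 CPM in RPE-like cells and to 1432 and 232 CPM in progenitor-like cells, with 9 of 10 lower in each. The 8 lens markers summed to 264 and 38.4 CPM in RPE-like cells and to 177 and 0.893 CPM in progenitor-like cells, and all 8 were lower in both, with Cryaa, Cryba1, Cryba4 and Crybb1 at 0 in mutant RPE-like cells and Cryaa, Cryba4 and Lim2 at 0 in mutant progenitor-like cells. Some other lists summed higher in mutant RPE-like cells. Pericyte markers had 308 and 408 CPM, ganglion cell markers 57.3 and 85.3 CPM, and surface epithelium markers 45.5 and 81.9 CPM. Retinal progenitor markers had 1516 and 1723 CPM there. The part of all these markers in the results below was not tested.

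Levels are described first by class. Among the 7 classes, 12 of the 35 members had their highest control level in RPE-like cells, 8 of them enzymes, and 31 of 35 had their highest level in the same class in both libraries. The exceptions were Hk2, Gapdh, Pkm and Car9. These orders used no UMI floor. The matching shares over all genes were not counted, so the numbers only describe the members. Aldoa, the muscle-type aldolase that splits fructose bisphosphate, had 1735 CPM in control RPE-like cells and 581 CPM in photoreceptor-like cells, the next class. Aldoc, its brain-type relative, had 197 CPM in RPE-like cells against 36.1 CPM in photoreceptor-like cells and 2.29 CPM in progenitor-like cells. Slc2a1, the GLUT1 glucose transporter of blood-tissue barriers, had 915 CPM in RPE-like, 530 CPM in endothelial-like and 451 CPM in progenitor-like cells, and 25.8 CPM in mesenchyme or pericyte-like cells. Mif, a cytokine and hypoxia target, had 3075 CPM in RPE-like cells and 298 CPM in endothelial-like cells.

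Photoreceptor-like cells stood apart by other members. Ldha, the lactate dehydrogenase subunit that favours lactate formation, reached 3124 CPM in their control cells, against 655 CPM in amacrine-like cells, the next class. Ndrg1, a hypoxia-responsive gene of differentiation, had 518 CPM there and 310 CPM in neurogenic-like cells, but 21.8 CPM in RPE-like cells. Eno2, the neuronal enolase, had 46.5 CPM in photoreceptor-like cells and 21.8 CPM in RPE-like cells. Ldhb, the lactate dehydrogenase subunit that favours pyruvate, was highest in amacrine-like cells at 618 CPM, with 542 CPM in RPE-like and 109 CPM in photoreceptor-like cells. Hif1a was also highest in amacrine-like cells (330 CPM) and ranged down to 92.2 CPM in mesenchyme or pericyte-like cells.

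The 2 alpha subunits were spread differently over the classes. Epas1 had 284 CPM in control endothelial-like cells, 44.6 CPM in RPE-like cells and 5.62 CPM in progenitor-like cells. Endothelial-like cells also led for Adm, which encodes the vasodilator peptide adrenomedullin (26.1 CPM), and for Ddit4, an inhibitor of mTORC1 signalling (126 CPM). Mesenchyme or pericyte-like cells led for P4ha1 and P4ha2, subunits of the collagen prolyl hydroxylases, with 104 and 44.4 CPM. Outside the 7 classes, 1 astrocyte-like cluster, with 31 control cells, had more Epas1 (545 CPM), Adm (272 CPM) and Aldoc (408 CPM) than any of the 7, and surface epithelium-like cells had the most Egln3, a prolyl hydroxylase of HIF alpha (114 CPM).

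**Figure D1:**
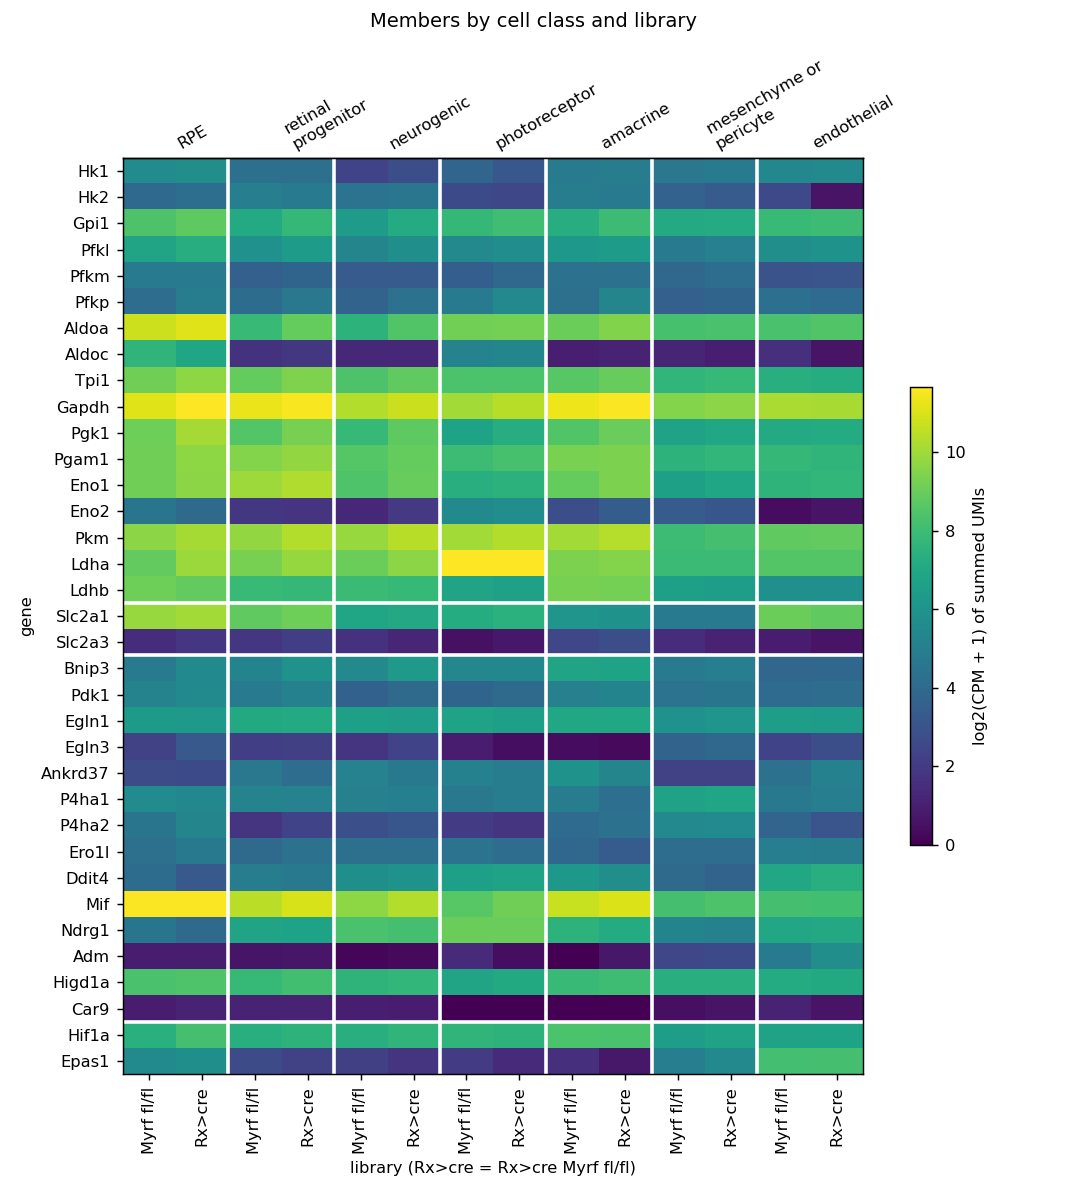
Level of each of the 35 members, as log2(CPM + 1), in the 7 classes of the control and mutant libraries, one column for every class and library and one row for each gene. Aldoa is brightest in RPE-like cells (1735 CPM in the control) and Ldha in photoreceptor-like cells (3124 CPM), in both libraries.

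The comparison between genotypes used the log2 ratio of mutant to control CPM with 1 CPM added. A gene was counted when it had at least 100 UMIs in the class over both libraries, and it was called higher or lower at a log2 ratio of 0.5 in either direction. In RPE-like cells, which carried Myrf in the control, 28 of 35 members could be counted. Of these 10 were higher and 1 lower in the mutant library, while over all 6541 genes counted 6.74% were higher and 11.4% lower. The 16 counted enzymes had a median ratio of 0.46, with 13 above 0, 7 called higher and 1 called lower, and over all genes the median was -0.00 with 49.9% above 0. The summed level of the enzymes was 8670 CPM in control cells and 12231 CPM in mutant cells. The 9 counted hypoxia targets had a median of 0.13, with 6 above 0 and 2 called higher, and their sum was 3674 and 3765 CPM, of which Mif made up most. At a ratio of 0.3 the members called higher were 16, against 17.5% of all genes, and at a ratio of 1 they were 2, against 1.48%. In cells with Xist 6 of 20 counted members were called higher, against 12.2% of all genes.

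Pgk1 and Ldha, at later steps of the pathway, held the largest ratios in RPE-like cells. The other later enzymes had smaller ratios than Pfkp of the upper steps (0.78). Pgk1, the phosphoglycerate kinase that makes ATP, had 537 CPM in control and 1082 CPM in mutant cells (log2 ratio 1.01, interval 0.92 to 1.10). Ldha had 454 and 965 CPM (1.09, interval 0.99 to 1.18). These were the only counted members at or above a ratio of 1, and the intervals of the 2 libraries did not overlap for either gene. Gapdh, the dehydrogenase of glyceraldehyde phosphate, had 2192 and 3210 CPM (0.55). Triose phosphate isomerase Tpi1 had 551 and 806 CPM (0.55), phosphoglycerate mutase Pgam1 559 and 801 CPM (0.52), and enolase Eno1 549 and 799 CPM (0.54). The 4 enzymes thus had close ratios, between 0.52 and 0.55. Pkm, the pyruvate kinase that follows them, was just under the call with 778 and 1081 CPM (0.47). Ldhb went the other way, with 542 CPM in control and 467 CPM in mutant cells (-0.22, interval -0.33 to -0.11), but its ratio was 0.27 in cells of at most 2000 UMIs, 0.02 in Y-linked cells and 0.19 with the class redrawn at a clustering resolution of 2.

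The upper steps also varied. Pfkp, the platelet-type phosphofructokinase, had 16.8 and 29.5 CPM in RPE-like cells (0.78, interval 0.28 to 1.35), from only 54 and 70 UMIs, and as a mean of single cells its ratio was -0.31. Its liver-type isoform Pfkl had 109 and 150 CPM (0.45), and the muscle-type isoform Pfkm had 26.5 and 26.6 CPM (0.01). Aldoa had 1735 and 2182 CPM (0.33), below the call, while Aldoc was the 1 member called lower, with 197 and 119 CPM (-0.73, interval -0.94 to -0.53). The 2 aldolase isoforms therefore differed in direction. Gpi1, the phosphoglucose isomerase, had 338 and 430 CPM (0.35). The hexokinase Hk1 had 48.3 and 52.8 CPM (0.13, interval -0.22 to 0.48), and Hk2 had 48 and 41 UMIs, too few to be counted. Eno2, an enolase and so a later step, had 21.8 and 15.2 CPM (-0.49, interval -1.14 to 0.08).

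Of the transporters, Slc2a1 had 915 and 1050 CPM in RPE-like cells (0.20, interval 0.12 to 0.28), and Slc2a3, the neuronal GLUT3, had 6 UMIs in each library. Hif1a was higher at 165 and 293 CPM (0.83, interval 0.66 to 1.00). Among RPE-like cells thinned to 1000 UMIs each, with shallower cells left out, the ratio of Hif1a was -0.049, from 112 UMIs in all, and the cause of this change was not tested. Epas1 had 44.6 and 54.9 CPM (0.29, interval -0.05 to 0.65).

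Among the hypoxia targets of RPE-like cells, Bnip3, a mitophagy receptor, had 28.0 and 45.2 CPM (0.67, interval 0.27 to 1.11) and P4ha2 had 22.4 and 38.0 CPM (0.73, interval 0.30 to 1.23). These were the 2 targets called higher. Pdk1, the kinase that shuts pyruvate dehydrogenase, had 35.5 and 46.9 CPM (0.39), and the endoplasmic reticulum oxidase Ero1l had 19.0 and 24.9 CPM (0.37, interval -0.15 to 0.93). Mif had 3075 and 3104 CPM (0.01, interval -0.03 to 0.06), but its ratio ran from -0.24 to 0.50 over 15 settings. Higd1a, a mitochondrial protein, had 317 and 347 CPM (0.13), and the oxygen sensor Egln1 had 80.1 and 76.8 CPM (-0.06). P4ha1 had 47.7 and 42.2 CPM (-0.17), and Ndrg1 had 21.8 and 15.2 CPM (-0.49), with intervals that included 0. Egln3, Ankrd37, Ddit4, Adm and Car9, the carbonic anhydrase used as a marker of hypoxia, had under 100 UMIs each in this class.

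Depth and cell state differed within the RPE-like class, so it was also read in its 2 sub-clusters, chosen after the data were seen. In the sub-cluster led by Pcp4, Slc38a8 and Folr1 (349 control and 105 mutant cells, median 1650 and 3139 UMIs) the enzymes had a median ratio of 0.53 over 12 counted. In the one led by Slc16a8, Klk4 and Ttr (135 and 93 cells, median 15426 and 18024 UMIs) the median was 0.41 over 14 counted. The targets had medians of 0.16 over 3 and 0.01 over 7 genes. Depth still differed between the genotypes within the sub-clusters, and its part in these medians was not tested.

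In retinal progenitor-like cells 33 of 35 members were counted, and 9 were higher and none lower in the mutant library, against 2.11% higher and 1.43% lower among 11399 genes. The enzymes had a median ratio of 0.32 with 14 of 17 above 0 and 7 called higher, and the median over all genes was 0.05. Their sum was 7260 CPM in control and 9503 CPM in mutant cells. The 12 counted targets had a median of 0.17, with 8 above 0 and 2 called higher. Of all genes counted 61.7% were above 0, a share close to that of the targets. Their sum was 2049 and 2694 CPM, again mostly Mif, which had 1406 and 1974 CPM (0.49, but -0.04 in cells of at most 2000 UMIs and -0.06 in cells with Xist). At a ratio of 0.3 the members called higher were 15, against 8.83% of all genes, and at a ratio of 1 they were 0, against 0.105%. In cells of at most 2000 UMIs 2 of 10 counted members were higher, against 9.31%.

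Aldoa showed the largest ratio in progenitor-like cells, with 239 and 469 CPM (0.97, interval 0.92 to 1.02), and Pgk1 followed with 372 and 608 CPM (0.71, interval 0.67 to 0.75). Gpi1 had 138 and 214 CPM (0.63), Pfkl 57.9 and 84.9 CPM (0.54), and Pfkp 16.6 and 24.7 CPM (0.54, interval 0.37 to 0.77, but -0.10 in cells with Xist). Pkm had 856 and 1265 CPM (0.56), and Ldha had 609 and 898 CPM (0.56). These 7 enzymes sit at the steps from phosphoglucose isomerase to aldolase and at phosphoglycerate kinase, pyruvate kinase and lactate dehydrogenase. Enzymes between them had smaller ratios, with Tpi1 at 477 and 667 CPM (0.48), Eno1 at 970 and 1209 CPM (0.32), Pgam1 at 713 and 853 CPM (0.26) and Gapdh at 2508 and 2927 CPM (0.22, but -0.14 in cells of at most 2000 UMIs and -0.07 in cells with Xist). Hk1 (0.03), Pfkm (0.17), Aldoc (0.16) and Eno2 (-0.06) had intervals that included 0. Hk2, the inducible hexokinase, was at 30.5 and 26.9 CPM (-0.17), and Ldhb at 237 and 219 CPM (-0.12).

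The remaining members of progenitor-like cells split by direction. Bnip3 had 37.3 and 63.0 CPM (0.74, interval 0.63 to 0.89) and P4ha2 48 and 96 UMIs (0.54, interval 0.19 to 1.24), the same 2 targets as in RPE-like cells. Pdk1 (0.36), Ero1l (0.35), Higd1a (0.29), Slc2a1 (0.24) and Hif1a (0.20) were above 0 with intervals clear of it, and Slc2a3 (0.35) was not clear of it. In cells with Y-linked UMIs only, Slc2a1 was at -0.02. Ankrd37, a small ankyrin-repeat protein induced by HIF, went the other way with 24.4 and 17.1 CPM (-0.49, interval -0.71 to -0.32), just under the call. Epas1 had 5.62 and 3.70 CPM (-0.49). Egln1 (0.04), Egln3 (0.02), P4ha1 (-0.07), Ddit4 (-0.16) and Ndrg1 (-0.05) had intervals that included 0. Adm had 11 and 15 UMIs and Car9 had 22 and 27, too few to be counted.

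**Figure D2:**
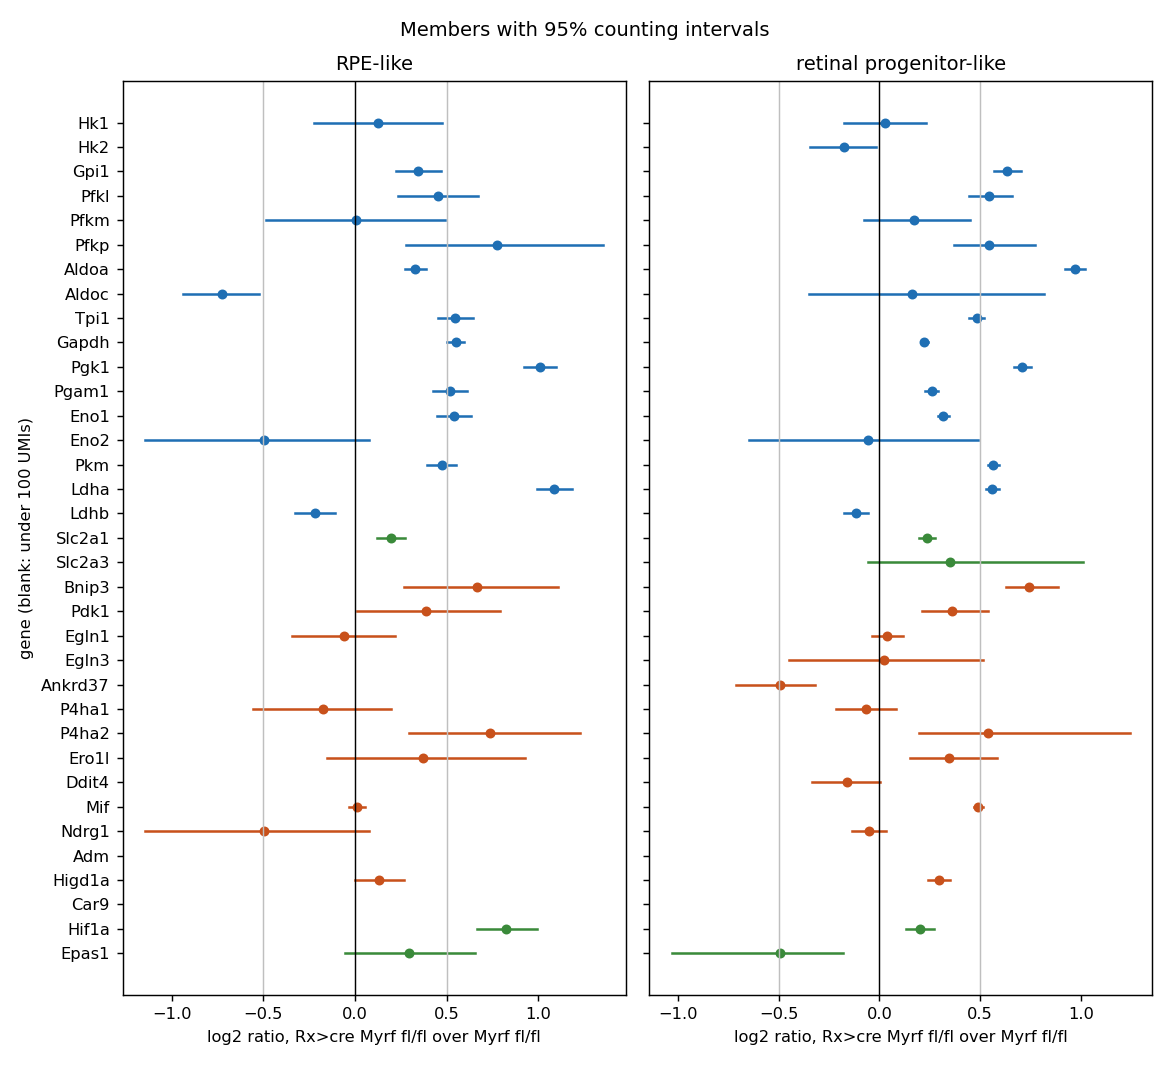
Log2 ratio of mutant to control CPM for each counted member in RPE-like and retinal progenitor-like cells, with 95% intervals for counting error as bars (blue, enzymes, orange, hypoxia targets, green, transporters and HIF alpha subunits, grey lines, ratios of 0.5 and -0.5). Pgk1 (1.01) and Ldha (1.09) lie farthest right in RPE-like cells and Aldoa (0.97) in progenitor-like cells, and Aldoc (-0.73) is the lone member called lower.

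Pgk1, Ldha, Bnip3, Pfkp and P4ha2 were called higher in both classes. The promoters of the first 3, which have the most UMIs of these, are shown with that of Ankrd37, which was at -0.49 in progenitor-like cells and so not called, and that of Gpi1, which was called higher there and lacks the motif sought. Each run covers 300 bases, 250 before and 50 after a RefSeq transcription start on the GRCm38.p6 build, written 5′ to 3′ on the strand of the gene. Capitals mark ACGTG and GCGTG on either strand (CACGT and CACGC on the strand shown), the core that HIF dimers bind. CACGTG contains the core on both strands, was counted as 2, and is also the E-box of other factors.
Pgk1, chrX:106186850-106187149, plus strand: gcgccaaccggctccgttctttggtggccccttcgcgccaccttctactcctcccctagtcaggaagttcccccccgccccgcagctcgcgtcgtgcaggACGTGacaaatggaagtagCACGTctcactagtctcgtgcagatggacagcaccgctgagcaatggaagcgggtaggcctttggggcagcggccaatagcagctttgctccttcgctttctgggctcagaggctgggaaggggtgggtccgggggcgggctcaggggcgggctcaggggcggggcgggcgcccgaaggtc
Ldha, chr7:46845554-46845853, plus strand: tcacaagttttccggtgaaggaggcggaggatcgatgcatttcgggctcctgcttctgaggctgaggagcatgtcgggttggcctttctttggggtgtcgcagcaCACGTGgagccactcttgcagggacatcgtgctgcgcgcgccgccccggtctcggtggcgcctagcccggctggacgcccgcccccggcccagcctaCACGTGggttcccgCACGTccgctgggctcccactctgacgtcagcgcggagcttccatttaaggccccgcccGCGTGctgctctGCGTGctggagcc
Bnip3, chr7:138909457-138909756, minus strand: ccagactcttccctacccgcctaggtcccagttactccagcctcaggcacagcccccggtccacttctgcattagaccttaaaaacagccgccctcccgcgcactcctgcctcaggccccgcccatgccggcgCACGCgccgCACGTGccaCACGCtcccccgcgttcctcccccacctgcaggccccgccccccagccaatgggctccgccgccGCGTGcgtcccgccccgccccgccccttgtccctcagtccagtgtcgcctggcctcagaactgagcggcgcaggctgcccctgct
Ankrd37, chr8:45999801-46000100, minus strand: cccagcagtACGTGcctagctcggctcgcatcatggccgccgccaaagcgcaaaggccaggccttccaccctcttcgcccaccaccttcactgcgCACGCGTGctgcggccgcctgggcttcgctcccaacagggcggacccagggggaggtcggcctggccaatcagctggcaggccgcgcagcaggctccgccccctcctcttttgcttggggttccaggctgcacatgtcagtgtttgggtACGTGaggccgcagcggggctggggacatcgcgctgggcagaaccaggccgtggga
Gpi1, chr7:34230287-34230586, minus strand: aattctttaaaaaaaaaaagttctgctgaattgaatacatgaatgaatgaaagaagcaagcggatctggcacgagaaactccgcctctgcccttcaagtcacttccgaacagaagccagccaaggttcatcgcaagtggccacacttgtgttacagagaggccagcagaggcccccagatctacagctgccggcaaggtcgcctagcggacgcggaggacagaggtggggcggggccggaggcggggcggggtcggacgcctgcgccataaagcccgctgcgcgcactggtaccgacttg

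The Ldha window shown held 7 cores and a second Ldha start, at chr7:46846832-46847131, had 2. Bnip3 held 5, Ankrd37 4, Pgk1 2 and Gpi1 0. Of 31 members with a promoter in the table, 28 (90.3%) had at least 1 core in a window, against 46.7% of 27025 genes. Over promoters the shares were 81.4% of 43 and 43.8% of 32851. Between the quartiles of the members' GC content, 56.3% and 67.3%, a core was held by 82.6% of 23 member promoters and 62.0% of 8604 promoters. All 12 hypoxia targets with a promoter and 14 of 17 enzymes had a core, the enzymes without one being Gpi1, Tpi1 and Eno2. In RPE-like cells 9 of 10 members called higher and 13 of 15 others had it, and in progenitor-like cells 8 of 9 and 18 of 20. With 2 or more cores in a window the numbers were 9 of 10 and 9 of 15 in RPE-like cells. In progenitor-like cells they were 6 of 9 and 15 of 20, and no test was made. Of all 27025 genes 22.9% had 2 or more cores, as did 71.0% of the 31 members. In the GC range given above the shares were 56.5% of member promoters and 33.2% of all promoters. Slc2a3, Ero1l, Ndrg1 and Epas1 were not matched. A match of letters is a description of the window and not a binding site.

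The neurogenic-like class, which lies between progenitors and neurons, had 8 of 27 counted members higher and none lower, against 2.19% and 1.19% of all genes counted there. Its 14 enzymes had a median ratio of 0.50, of which 6 were called higher. Aldoa had 185 and 363 CPM (0.97), Pgk1 220 and 431 CPM (0.96), Gpi1 87.0 and 142 CPM (0.70) and Ldha 515 and 790 CPM (0.62). The order of these 4 genes by ratio was the same as in progenitor-like cells. Mif had 818 and 1252 CPM (0.61) and Bnip3 43.7 and 77.2 CPM (0.81), while the 11 targets together had a median of 0.15. Among Xist cells of this class (35 control and 1233 mutant) the enzyme median was 0.37 and the target median 0.41. Among its Y-linked cells (940 and 214) these medians were 0.65 and -0.08. The mesenchyme markers summed to 1576 and 215 CPM in this class with 9 of 10 lower, and the lens markers to 221 and 2.08 CPM with 8 of 8 lower and Cryaa, Crygd, Lim2 and Mip at 0 in mutant cells. In photoreceptor-like and amacrine-like cells the mesenchyme markers summed to 2153 and 274 CPM and to 1293 and 180 CPM, and the lens markers to 315 and 2.06 CPM and to 229 and 3.25 CPM. Red blood markers summed to 421 and 1109 CPM in photoreceptor-like cells (4 of 7 higher) and to 3510 and 180 CPM in amacrine-like cells (5 of 7 lower). Their part in the ratios of these classes was not tested.

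In photoreceptor-like cells 1 of 24 counted members was higher and none lower, against 2.75% and 1.87% of all genes. The 1 was Pfkp with 25.8 and 44.3 CPM (0.76). Ldha, by far the leading member of this class, was level at 3124 and 3161 CPM (0.02), and Aldoa had 581 and 601 CPM (0.05). Pgk1 had 108 and 153 CPM, a ratio of 0.50 that lay just under the call. The enzyme median was 0.20 and the target median 0.10.

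In amacrine-like cells 2 of 27 members were higher and 2 lower, against 2.84% and 1.90% of all genes. The higher ones were Pfkp, with 18.7 and 37.9 CPM (0.98), and Gpi1, with 154 and 255 CPM (0.73). The lower ones were Ankrd37, with 63.2 and 38.1 CPM (-0.71, interval -1.04 to -0.42), and P4ha1, with 28.8 and 18.4 CPM (-0.62). Among Y-linked cells Ankrd37 had 65.7 and 17.8 CPM (-1.82), and among cells with Xist, with 4 control UMIs, 44.5 and 44.5 CPM (0.00). Ldha had 655 and 721 CPM (0.14) and Bnip3 109 and 107 CPM (-0.03), both far from the call, and the enzyme median was 0.22.

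The classes outside the eye field served as a comparison, since Rx marks cells of the eye field. In mesenchyme or pericyte-like cells none of 32 counted members was higher or lower, against 1.73% and 1.08% of all genes. Pgk1 had 105 and 125 CPM (0.25), Ldha 245 and 248 CPM (0.01) and Aldoa 308 and 313 CPM (0.02), and the enzymes had a median of 0.15. Of the 16 counted enzymes 13 were above 0, as were 26 of 32 members, against 49.3% of all genes, so the direction of most members was shared by this class outside the eye field. In endothelial-like cells 2 of 24 were higher and none lower, against 2.92% and 4.32%. These were Adm, with 26.1 and 52.7 CPM (0.99), and Ankrd37, with 19.8 and 33.5 CPM (0.73, interval 0.24 to 1.28). This class had 435 control and 167 mutant cells, with a median of 4180 and 9074 UMIs. Xist and Y-linked cells numbered 63 and 192 in the control and 90 and 33 in the mutant library. The part of depth and sex in these 2 ratios was not tested. Markers of other cells moved in this class too. Mesenchyme markers summed to 1382 and 179 CPM (9 of 10 lower), red blood markers to 3894 and 913 CPM (6 of 7 lower), lens markers to 230 and 5.86 CPM (7 of 8 lower) and RPE markers to 150 and 22.9 CPM (7 of 10 lower), and in mesenchyme or pericyte-like cells red blood markers summed to 1576 and 895 CPM and lens markers to 178 and 6.43 CPM. Their part in the ratios was not tested. The endothelial enzymes had a median of 0.06 and sums of 3399 and 3436 CPM. Slc2a1 had 530 and 453 CPM there (-0.22). The enzyme sum in mesenchyme or pericyte-like cells was 2433 and 2652 CPM.

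**Figure D3:**
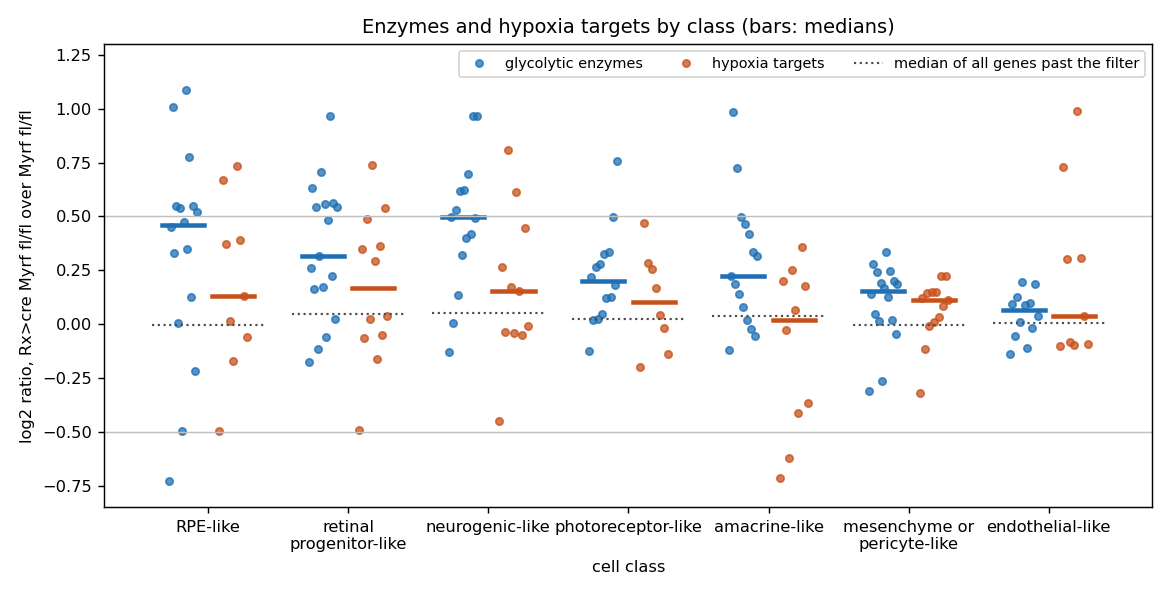
Log2 ratio of mutant to control CPM of every counted member in each of the 7 classes, enzymes apart from hypoxia targets, with the median of each group as a thick line, the median of all counted genes as a dotted line and ratios of 0.5 and -0.5 as grey lines. Enzyme medians are 0.46 in RPE-like, 0.32 in progenitor-like and 0.50 in neurogenic-like cells, 0.20 in photoreceptor-like and 0.22 in amacrine-like cells, and 0.15 and 0.06 in mesenchyme or pericyte-like and endothelial-like cells.

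**Figure D4:**
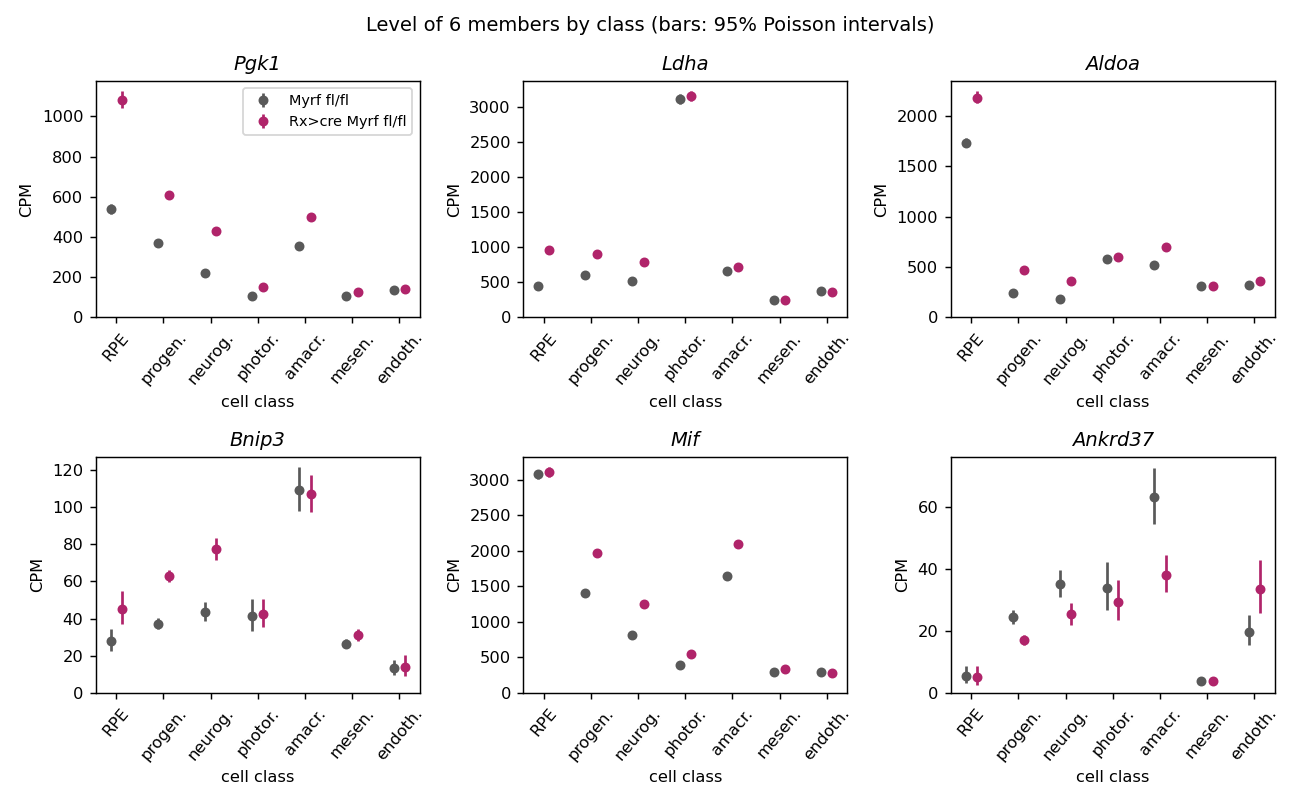
Level in CPM of Pgk1, Ldha, Aldoa, Bnip3, Mif and Ankrd37 in each class, control beside mutant, with exact Poisson intervals as bars. Pgk1 is higher in the mutant RPE-like cells (537 and 1082 CPM), Ldha is level in photoreceptor-like cells (3124 and 3161 CPM), and Ankrd37 differs in direction between amacrine-like and endothelial-like cells.

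Other genes of the pathway, listed by function, were counted in the same classes. Of 21 further genes of glucose and pyruvate metabolism, 7 were counted in RPE-like cells with a median of -0.12, 1 called higher and 2 lower. Over all genes 6.74% were higher and 11.4% lower in this class. Pdha1, a subunit of pyruvate dehydrogenase, had 40.8 and 72.2 CPM (0.81). Slc16a1, the monocarboxylate transporter MCT1, had 121 and 67.5 CPM (-0.84), and Pdk3, a kinase of pyruvate dehydrogenase, 28.7 and 17.7 CPM (-0.66). Of these 21 genes, 12 were counted in progenitor-like cells with a median of 0.04 and no call, against 2.11% higher and 1.43% lower.

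Of 33 further hypoxia genes, 18 were counted in RPE-like cells with a median of 0.07 and 26 in progenitor-like cells with a median of 0.05. In RPE-like cells Fam162a, a mitochondrial protein, had 131 and 211 CPM (0.69), the collagen lysyl hydroxylase Plod2 19.0 and 29.5 CPM (0.61) and the carbonic anhydrase Car12 163 and 90.3 CPM (-0.84). In progenitor-like cells the hormone Stc2 had 3.74 and 5.74 CPM (0.51), and the lysyl oxidases differed, with Loxl2 at 8.22 and 15.4 CPM (0.83) and Lox at 12.5 and 4.12 CPM (-1.40). The summed mesenchyme markers, at 1432 and 232 CPM in this class, were lower together with Lox, and their part in it was not tested.

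Progenitor-like cells called G2/M (2417 control and 2950 mutant cells) had an enzyme median of 0.44, those called S (1145 and 1382) 0.34, and those called neither (331 and 214) 0.44, over 15, 15 and 10 counted enzymes. Single enzymes varied between the states, with Gpi1 at 0.68, 0.54 and 0.09, Pgk1 at 0.68, 0.76 and 0.37 and Pgam1 at 0.22, 0.29 and 0.57, and these differences were not tested. The enzyme sums were 7467 and 9688 CPM in G2/M, 7061 and 9277 CPM in S, and 5549 and 7059 CPM in neither state. Enzyme levels were thus lowest in cells called neither in both libraries. State calls depend on depth. After cells were thinned to 1000 UMIs, with shallower cells left out, the medians were 0.42, 0.33 and 0.51. Target medians over all UMIs were 0.13, 0.18 and 0.37. Across the 5 progenitor-like clusters the enzyme median ran from 0.33 to 0.76 and the target median from -0.06 to 0.41.

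Since sex differed between the pools, progenitor-like cells were compared again within each sex. Among cells with Y-linked and no Xist UMIs (2278 control and 635 mutant) the enzyme median was 0.55 over 15 genes. Aldoa had 226 and 500 CPM (1.14), Pgk1 363 and 682 CPM (0.91), and Ldha 588 and 926 CPM (0.65). Bnip3 had 35.4 and 59.4 CPM (0.73). The target median was -0.03. Of 27 members counted in these cells 11 were called higher and 4 lower, against 5.09% and 4.08% of all genes. The 4 were Ankrd37 at 23.9 and 7.74 CPM (-1.51), P4ha1 at 35.7 and 14.6 CPM (-1.23), Hk2 at 30.5 and 12.6 CPM (-1.21) and Ddit4 at 28.5 and 14.3 CPM (-0.95). None of these 4 was called in the whole class.

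Among cells carrying Xist but lacking Y-linked UMIs (80 control and 3338 mutant) the enzyme median was 0.14 and the target median 0.44, with 2 of 15 enzymes called higher, 9 of 10 targets above 0 and 4 of 10 called higher, where 59.9% of all genes were above 0 and 21.6% called higher. The 4 members that were lower among Y-linked cells were above 0 here, Hk2 at 1.52, P4ha1 at 1.53, Ankrd37 at 0.91 and Ddit4 at 0.43, from 4 to 8 control UMIs each. Pfkp, called higher in the whole class, was at -0.10, with an interval that included 0. Ldha had 652 and 878 CPM (0.43, interval 0.25 to 0.62). Aldoa had 395 and 450 CPM (0.19, interval -0.04 to 0.43), and Pgk1 had 530 and 582 CPM (0.14, interval -0.06 to 0.34). Both ratios were smaller than in the whole class and their intervals included 0. The control values rest on 152 UMIs of Aldoa and 204 of Pgk1. In RPE-like cells the enzyme median was 0.42 over 13 genes in Xist cells (81 control and 77 mutant) and 0.56 over 12 genes in Y-linked cells (126 and 36).

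The mutant pool was then split by the same sex-linked transcripts, a comparison within 1 library and 1 genotype that was added after the data were seen. Sex and animal cannot be told apart in it. Of 27 members counted in progenitor-like cells, 4 were higher and none lower in the 3338 Xist cells than in the 635 Y-linked cells, against 3.06% and 1.97% of all genes. Hk2 had 12.6 CPM in Y-linked and 31.7 CPM in Xist cells (1.26, interval 0.88 to 1.81), P4ha1 14.6 and 39.5 CPM (1.37), Ankrd37 7.74 and 20.4 CPM (1.29) and Ddit4 14.3 and 28.4 CPM (0.94). Slc2a1 had 439 and 568 CPM (0.37). Other members with large ratios between genotypes were not called here, with Aldoa at 500 and 450 CPM (-0.15), Ldha at 926 and 878 CPM (-0.08), Bnip3 at 59.4 and 61.8 CPM (0.06) and Pgk1, which lies on the X chromosome, at 682 and 582 CPM (-0.23). The 4 members called here are the same 4 that were lower in the mutant library among Y-linked cells, a comparison that shares the 635 Y-linked mutant cells with this one. The 10 targets counted in this split had a median ratio of 0.31 and the 15 enzymes -0.08, against 0.01 over all genes. Between the genotypes the target median of the whole class was 0.17.

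The same split in other classes used the same animals and is no separate replicate. In neurogenic-like cells 4 of 25 members were higher and none lower, against 4.98% and 3.58% of all genes, and they were Ankrd37 (8.55 and 30.4 CPM), Hk2 (log2 ratio 0.82), P4ha1 (21.4 and 34.7 CPM) and Pdk1 (10.3 and 16.4 CPM, with an interval that included 0). In amacrine-like cells 4 of 24 were higher and none lower, against 7.21% and 3.62%, and they were Ankrd37 (17.8 and 44.5 CPM), Hk2 (13.0 and 32.3 CPM), Bnip3 (56.7 and 117 CPM) and Slc2a1 (35.7 and 70.8 CPM). In mesenchyme or pericyte-like cells of the mutant library 1 of 28 was higher, Ndrg1 (0.58), and none lower, against 5.05% and 1.93%. In those of the control library none of 30 was higher or lower, against 1.22% and 3.49%. Target medians in the mutant library were 0.22 in neurogenic-like, 0.40 in amacrine-like and -0.15 in mesenchyme or pericyte-like cells. Enzyme medians there were -0.13, -0.01 and -0.13, and medians over all genes 0.00, 0.01 and 0.01.

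**Figure D5:**
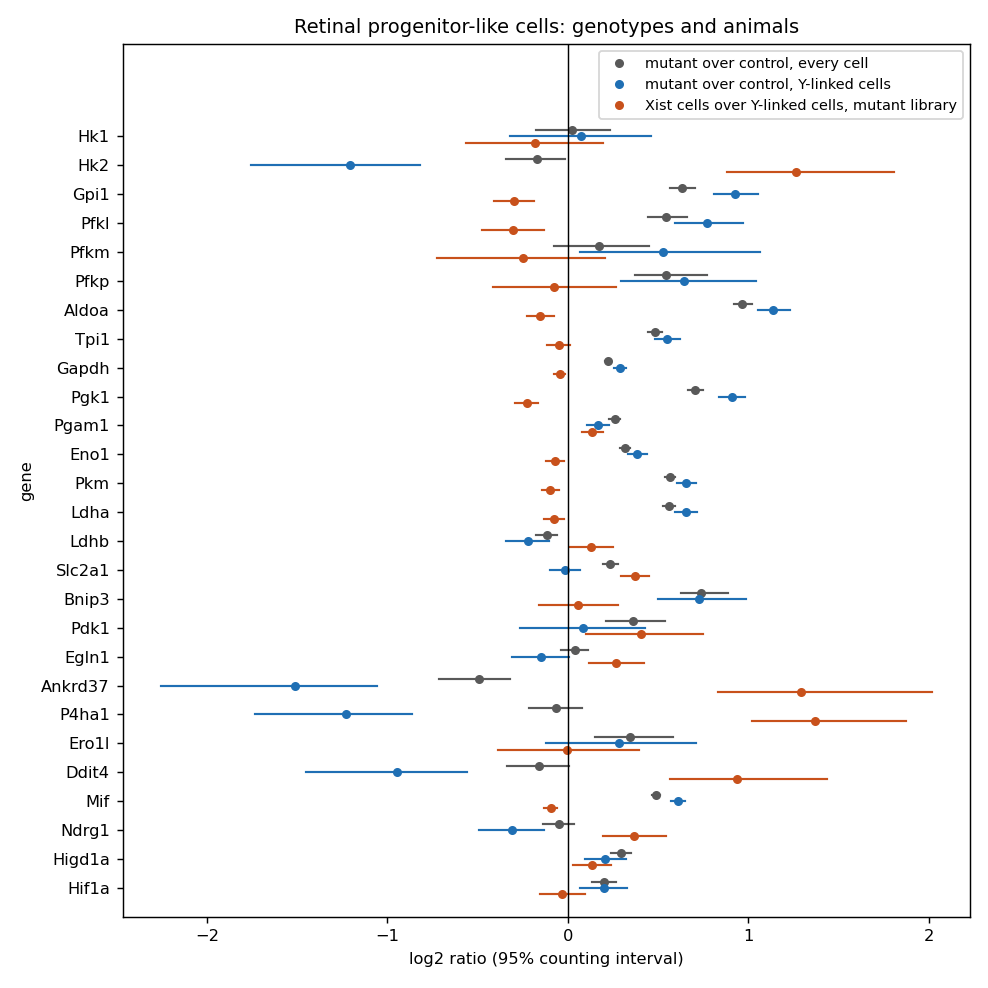
Log2 ratios of the members in progenitor-like cells for mutant over control in all cells, mutant over control in Y-linked cells, and Xist over Y-linked cells within the mutant library, with 95% counting intervals as bars, for the members counted in all 3. Aldoa is at 0.97, 1.14 and -0.15, and Ankrd37 at -0.49, -1.51 and 1.29.

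Most listed copies of members had few UMIs. Eno1b, a near copy of Eno1, had 155 and 42 UMIs in progenitor-like cells against 18663 and 28447 for Eno1. Pgk2 and Aldoart1 had none in this class. Ddt, a relative of Mif rather than a near-identical copy, had 2172 and 2656 UMIs there and 1165 and 880 UMIs in RPE-like cells, with log2 ratios of -0.00 and 0.03. The median mitochondrial share was 4.64% and 5.32% in RPE-like cells and 3.45% and 2.64% in progenitor-like cells, and genes of the dissociation response summed to 1989 and 2089 CPM and to 2173 and 2344 CPM. The part of these differences in the ratios was not tested beyond the alternatives given at the end.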

How the data were processed

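The 2 libraries (10x Genomics 3′ single-cell RNA, eye cups, 1 for each genotype) were analysed, and the authors aligned reads to mm10 and deposited unnormalized UMI counts of 31053 features per barcode. The submitters' processing notes name Cell Ranger 7.1.0 and Seurat 4.1.1, and the matrix header gives 3.1.0. The gene annotation is not given in the sources used here. Barcodes with at least 200 genes and at most 15% mitochondrial UMIs were kept, and doublets scored by Scrublet in scanpy 1.11.5 were removed at 0.8% per 1000 barcodes, because Scrublet's own cut-off found 0% in the control and 5.46% in the mutant library. The study's own upper limit of 2000 UMIs per cell was used as an alternative only, because 80.2% and 92.1% of barcodes lie above it. Cells were clustered in Seurat 5.3.0 (R 4.3.3) with 2000 variable genes, from which the members and other listed genes were left out, 30 principal components and a resolution of 1. Clusters were named "-like" from marker lists that required at least 3 detected markers.

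For every class of each library, UMIs were added up and scaled to its total (CPM). Ratios are log2 with 1 CPM added. Intervals are exact Poisson for a level and exact conditional Poisson for the plain ratio (scipy 1.17.1), and the ratio script was tested on simulated data. Genes named in full are those past the fold of 0.5 in RPE-like or progenitor-like cells, and those that set a class apart. The members and lists were chosen with earlier results of these data known. Positions are GRCm38, and promoters are from RefSeq (GRCm38.p6). The 2000-UMI limit, mitochondrial limit, doublets, pseudocount, filter, scaling, thinning, sex and the fold were varied.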

Additional observations from a re-analysis of the deposited data

Results flagged for a closer look

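Ankrd37 had a log2 ratio of 0.73 (interval 0.24 to 1.28) in endothelial-like cells and of -0.71 (interval -1.04 to -0.42) in amacrine-like cells, so its direction differed between classes under the same contrast. P4ha1 had 0.15 in mesenchyme or pericyte-like cells and -0.62 in amacrine-like cells. The amacrine values moved with the sex of the cells. The target median was -0.68 in Y-linked amacrine-like cells and 0.41 in those with Xist, of which the control library held only 16, and Ankrd37 was at -1.82 and 0.00, the latter from 4 control UMIs. P4ha1 had 31.4 and 4.86 CPM in Y-linked amacrine-like cells of the control and mutant libraries, from 64 and 3 UMIs, and 1 and 71 UMIs in those with Xist. Within the mutant library Ankrd37 had 17.8 CPM in Y-linked and 44.5 CPM in Xist cells of this class. The endothelial-like cells also differed in depth between the libraries, with a median of 4180 and 9074 UMIs, and the part of this was not tested. With 1 library per genotype neither difference between classes was tested.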

How the results depend on the processing

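The enzyme median stayed above 0 in all 17 settings in RPE-like cells (0.38 to 0.68) and in progenitor-like cells (0.14 to 0.55). The hypoxia target median ran from -0.23 to 0.50 and from -0.04 to 0.44, so its sign was not kept. In RPE-like cells the enzyme median was 0.68 in cells of at most 2000 UMIs (10 enzymes), 0.56 with a mitochondrial limit of 5%, 0.56 in Y-linked cells and 0.61 after thinning to 1000 UMIs. In Xist cells it was 0.14 in progenitor-like cells, and the target median was -0.23 in RPE-like cells, where 6 members were then called higher. A fold of 0.3 called 16 members higher in RPE-like and 15 in progenitor-like cells (17.5% and 8.83% of all genes), a fold of 1 called 2 and 0 (1.48% and 0.105%), and cells of at most 2000 UMIs left 2 of 10 in progenitor-like cells. Of members past the fold, ratios that turned were Pfkp in Xist progenitor-like cells (-0.10), Hif1a in thinned RPE-like cells (-0.049) and Pfkp as a mean of single RPE-like cells (-0.31). The cause was not tested. Over all counted members 18 of 28 in RPE-like and 19 of 33 in progenitor-like cells kept their sign, and of those past the fold 9 of 11 in RPE-like and 8 of 9 in progenitor-like cells did so, where a member could be counted in 8 to 16 settings. No paired analysis was possible because each genotype has 1 library. Genes under 100 UMIs in a class could not be compared at this depth.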
